A study of Homo sapiens with 8 samples.

Results

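The 2 strands of miR-99a were compared in FaDu cells, a line from a human hypopharyngeal squamous cell carcinoma, to describe which genes moved with both strands and which with 1 strand only. On 1 array the cells had been transfected with miR-99a-5p (the guide strand) and on the other with miR-99a-3p (the passenger strand), in each case labelled with Cy5 and set against mock FaDu cells labelled with Cy3, which the labels give as not transfected. Transfection was with Lipofectamine RNAiMAX, and neither the dose nor the time for FaDu is given in the sources used here. The series holds 8 such 2-colour arrays on 1 slide. Of 43317 gene names on the array, 15280 genes had a probe well above background in both channels of both FaDu arrays, and these genes are described below, each by its brightest such probe. There was 1 array per strand and no dye swap, so no test between conditions was possible and no p-value is given.

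A microRNA hairpin is cut into a duplex of which either strand can be loaded into an Argonaute protein, which then lowers messenger RNAs that pair with the strand's seed. The strands of one duplex have different seeds, and so different sets of direct targets. miR-99a belongs to the miR-99/100 family, whose 5p strand is best known for lowering MTOR and IGF1R and is often low in squamous cell carcinoma.

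The sequences are shown because the comparison is one between the seeds of a single hairpin. MIR99A lies on chr21:16539089-16539169 (GRCh38.p14, + strand, RefSeq), with the 5p and then the 3p strand in capitals in its hairpin of 81 bases.
MIR99A hairpin: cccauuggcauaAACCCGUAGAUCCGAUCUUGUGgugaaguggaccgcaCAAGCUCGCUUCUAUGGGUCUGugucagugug

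In the mature strands of 22 bases the capitals mark the seed, bases 2 to 8. miR-100-3p, a relative from chromosome 11 that was transfected into PC3 cells in the same series, is given beside them. Its seed differs from that of miR-99a-3p in 1 base.
miR-99a-5p: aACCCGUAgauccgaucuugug
miR-99a-3p: cAAGCUCGcuucuaugggucug
miR-100-3p: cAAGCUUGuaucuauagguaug

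Values below are log2 ratios of transfected over mock cells, and a gene is called raised at 1 or more and lowered at -1 or less, which is a change of 2-fold or more. miR-99a-3p moved many more genes than miR-99a-5p. With miR-99a-3p 1022 genes were raised (6.69% of the 15280) and 915 were lowered (5.99%). With miR-99a-5p 112 were raised (0.733%) and 23 were lowered (0.151%). Many of the raised ones were dim: of the 1624 genes with a mock signal under 100, miR-99a-5p raised 70 and lowered 0. With limma's normexp and loess in place of the deposited ratios, 23 genes were moved by miR-99a-5p and 1225 by miR-99a-3p. The SD of the log2 ratio over genes was 0.70 with miR-99a-3p and 0.32 with miR-99a-5p, and the median was -0.01 and 0.00. The difference between the strands, the log2 ratio with miR-99a-3p minus that with miR-99a-5p, was 1 or more in 851 genes (5.57%) and -1 or less in 875 genes (5.73%).

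The mock channels gave the only measure of how far like cells differ between these arrays. After limma's loess and between-array scaling of the Cy3 signals, the mock channels differed with an SD of 0.12 over the 15280 genes, and 0 genes reached a size of 1. In the signals as deposited, less the median gap between the arrays, 20 genes did, and over the 1624 genes with a mock signal under 100 the SD was 0.31 in place of 0.15. The transfected channels, treated alike, differed with an SD of 0.54, with 507 genes at 1 or more and 493 at -1 or less. Whether both mock samples came from 1 culture is not given, so this spread may be technical. The other error at hand was within the array: the scanner software's error of a log2 ratio had a median of 0.21 on either array and of 0.30 for the difference, and over 279 genes whose probe was printed 5 or more times the median SD between spots was 0.07 and 0.06. None of these errors covers the spread between transfections.

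**Figure D1:**
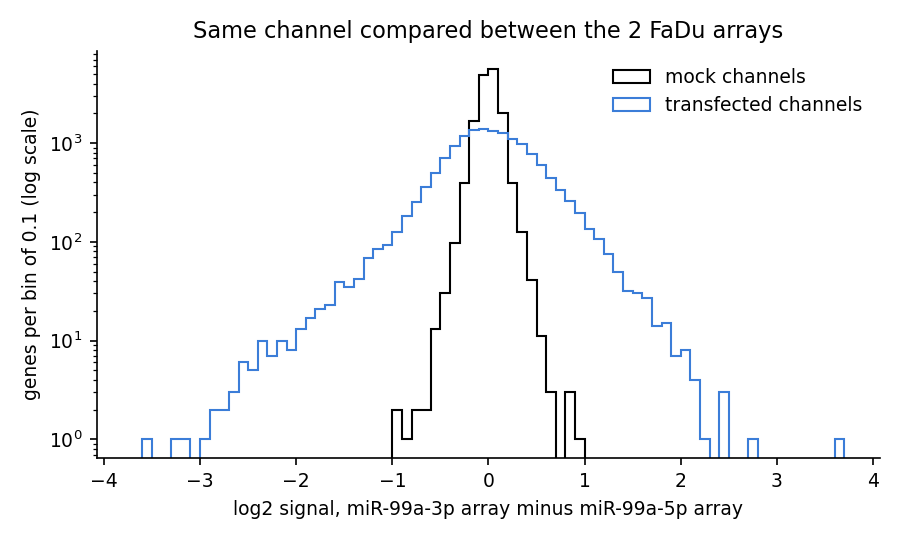
Histogram of the log2 signal on the miR-99a-3p array minus that on the miR-99a-5p array for the 15280 genes, in bins of 0.1, with the number of genes on a log scale. The mock channels (black) stay within -0.92 and 0.91, and the transfected channels (blue) spread from -3.59 to 3.62.

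All 11 squamous epithelial markers looked for (such as KRT5, KRT14, TP63 and DSG3) were well above background in both mock channels. Of the markers of other cell types, 1 of 5 fibroblast, 2 of 4 endothelial and 1 of 2 leukocyte genes were, and COL3A1, LUM, PECAM1 and KDR were in neither. COL1A1, VWF, CDH5 and PTPRC, which were, had mock signals of at most 87.9. Signals were higher on the miR-99a-3p array, where the mock channel was 1.71-fold brighter at the median.

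Of the 135 genes moved by miR-99a-5p, 45 were moved in the same direction by miR-99a-3p (33.3% of the 135, and 2.32% of the 1937 moved by miR-99a-3p), and 7 were moved in opposite directions. For comparison, miR-99a-3p raised 6.69% and lowered 5.99% of all genes. These shares do not match the signal of the genes moved by miR-99a-5p. Of the 112 that it raised, 70 had a mock signal under 100. Among all 1624 genes with such a signal, miR-99a-3p raised 234 and lowered 6, so the share raised was higher among dim genes than among all. Both strands raised 35 genes and lowered 10. With normexp and loess in place of the deposited ratios, 9 of the 35 and 4 of the 10 were still raised or lowered by both, and all 45 kept their signs. The cells of both arrays were transfected and the mock cells were not, so what the strands have in common and what transfection itself does cannot be told apart here.

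**Figure D2:**
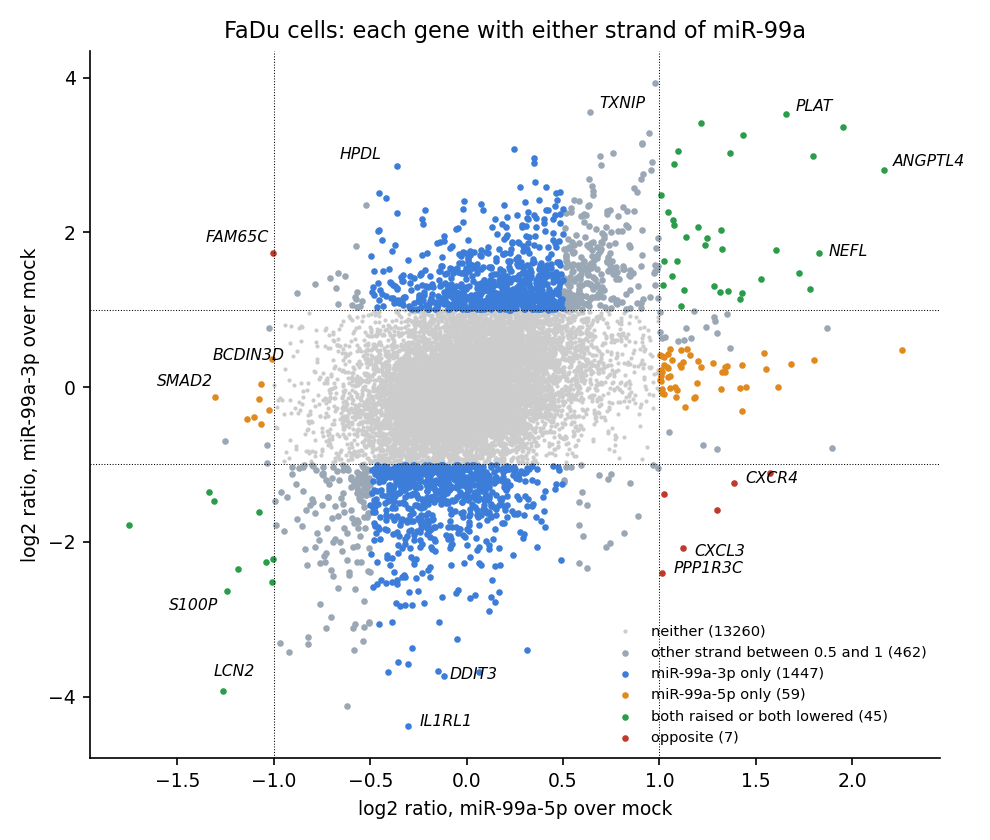
Each point is 1 of the 15280 genes, with its log2 ratio over mock with miR-99a-5p on the x axis and with miR-99a-3p on the y axis, coloured by class (number of genes in brackets), and dotted lines at -1 and 1. The cloud is wider along the miR-99a-3p axis, and the 7 genes that moved in opposite directions lie in the corners at upper left and lower right.

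Among the 28 protein-coding genes raised by both, ANGPTL4, a secreted inhibitor of lipoprotein lipase, was the highest by its smaller value. Its probe (hg19 chr19:8439197-8439256) gave 2049 for mock and 9174 for miR-99a-5p cells on one array, and 3484 for mock and 24365 for miR-99a-3p cells on the other. Both transfected signals were thus above both mock signals, with log2 ratios of 2.16 (spot error 0.29) and 2.81 (0.33), and the strands differed by 0.64 (0.44).

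NEFL, the light chain of neurofilaments, had mock signals of 227 and 405 and transfected signals of 806 with miR-99a-5p and 1350 with miR-99a-3p. Its ratios of 1.83 and 1.74 differed by -0.09 (error 0.37), so the strands did not differ beyond the spot error. IL24, a cytokine of the IL-10 family, was at 1.61 and 1.78. INPP5D, an inositol phosphatase, was at 1.80 and 2.99. EFEMP2, an elastic fibre protein, was at 1.73 and 1.47, but at 1.01 and 0.86 with normexp and loess.

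PLAT, the tissue-type plasminogen activator, was raised more by miR-99a-3p. Over its 8 spots per array it had 78.7 for mock and 247 for miR-99a-5p cells, against 151 for mock and 1739 for miR-99a-3p cells. Its ratios were 1.66 (SD between spots 0.19) and 3.52 (0.12), a difference of 1.87 (spot error 0.48). The chemokine CXCL1 (1.08 and 2.10) and the metallothionein MT2A (1.04 and 2.26), which are bright on both arrays, were also raised by both.

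Of the 10 genes lowered by both, 7 were protein-coding. LCN2, a siderophore-binding secreted protein, went from 5192 in mock to 2164 with miR-99a-5p, and from 8851 in mock to 582 with miR-99a-3p. Each transfected signal was below its own mock, with ratios of -1.26 (spot error 0.24) and -3.93 (0.42). S100P, a calcium-binding protein, went from 16104 to 6801 and from 27218 to 4400, which gave -1.24 and -2.63. ABCC3, an efflux transporter, was at -1.08 and -1.62. NUPR1, a stress-induced chromatin protein, was at -1.01 and -2.51. RPS6KA2, a ribosomal S6 kinase, was at -1.04 and -2.26, and CACNG6, a calcium channel subunit, at -1.34 and -1.35. With normexp and loess LCN2, S100P and ABCC3 were still lowered by both strands, while NUPR1 (-0.98 with miR-99a-5p), RPS6KA2 (-0.71) and CACNG6 (-0.81 and -0.83) were not.

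In 7 genes the strands moved the signal in opposite directions, and 5 of these are protein-coding. With normexp and loess all 7 kept their signs, but 1 of them, which is not one of these 5, still reached a size of 1 with both strands. CXCL3 was then at 0.75 and -1.08 and CXCR4 at 1.03 and -0.70. In the deposited ratios CXCL3, a neutrophil-attracting chemokine, was at 111 in mock and 243 with miR-99a-5p, but at 233 in mock and 55.3 with miR-99a-3p. The miR-99a-3p signal lay below both mock signals and the miR-99a-5p signal above them, with ratios of 1.12 (spot error 0.24) and -2.08 (0.32). CXCR4, the receptor of CXCL12, was measured on 10 spots per array, with 142 in mock and 373 with miR-99a-5p, and 251 in mock and 108 with miR-99a-3p. Its ratios were 1.39 (SD between spots 0.21) and -1.24 (0.18).

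PPP1R3C, a glycogen-targeting subunit of protein phosphatase 1, was at 1.01 with miR-99a-5p and -2.40 with miR-99a-3p. RASD1, a dexamethasone-induced Ras-like protein, was at 1.02 and -1.39 over 8 spots. FAM65C was the only one of the 5 that was lowered by miR-99a-5p (-1.004, just past the limit) and raised by miR-99a-3p (1.73). CXCL1 and CXCL3, which lie in the same chemokine cluster on chromosome 4, were both raised by miR-99a-5p, while miR-99a-3p raised CXCL1 and lowered CXCL3.

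The filter left out genes near the background in a transfected channel, whether or not a strand had lowered them. Fewer spots were well above background in the transfected than in the mock channel on both arrays. The shares were 37.2% against 45.4% on the miR-99a-5p array and 39.6% against 44.5% on the miR-99a-3p array. With miR-99a-3p 456 genes were well above background in the other 3 channels but not in the transfected one, and with miR-99a-5p 1099 were. For protein-coding genes among them, a bound of 2-fold or more was reached by 94 genes with miR-99a-3p and by 11 with miR-99a-5p, taking as the floor the higher of the lowest signal called well above background and the gene's own signal. EDN2, an endothelin, was at least 25.04-fold lower with miR-99a-3p (1219 in mock and 48.7 in transfected cells), while its log2 ratio with miR-99a-5p was 0.93. HSPA6, a stress-induced HSP70, was at least 10.8-fold lower with miR-99a-3p and at a log2 ratio of 1.98 with miR-99a-5p. PNLIPRP3, a lipase-related protein, was at least 14.2-fold lower with miR-99a-3p and at -0.38 with miR-99a-5p. The largest bound with miR-99a-5p was 2.79-fold, for ABCG1, a sterol transporter.

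A gene was counted as moved by 1 strand only when it reached a size of 1 with that strand and stayed under 0.5 with the other. By this rule 1447 genes moved with miR-99a-3p only, 721 raised and 726 lowered, and 59 with miR-99a-5p only, 51 raised and 8 lowered. Between these limits lay 438 further genes moved by miR-99a-3p, of which 400 had the same sign with miR-99a-5p and 38 the opposite sign. So did 24 moved by miR-99a-5p, 19 with the same sign and 5 with the opposite sign. Just inside a difference of 1 lay SMG9 (1.001) and TMCC1 (1.000), and just outside it ALKBH3 (-0.999) and KCNK12 (-0.998).

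The 5 protein-coding genes with the largest differences among those lowered with miR-99a-3p only were IL1RL1, CCNA1, AGR2, DDIT3 and UNC5B. IL1RL1, the receptor of interleukin 33, had mock signals of 2859 and 5048 and was at 2317 with miR-99a-5p, but at 243 with miR-99a-3p. Its ratios were -0.30 (spot error 0.21) and -4.38 (0.46), the lowest of all 15280 genes with miR-99a-3p. CCNA1, the cyclin A of the germ line, was at 564 in mock and 589 with miR-99a-5p, and at 960 in mock and 75.03 with miR-99a-3p. AGR2, a disulphide isomerase of secretory cells, was at -0.11 and -3.74, and UNC5B, a netrin receptor, at -0.30 and -3.58.

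The 5 protein-coding genes with the largest differences among those raised with miR-99a-3p only were HPDL, FRS2, B4GAT1, MMP10 and ALPK3. HPDL, a mitochondrial dioxygenase, was at 90.9 in mock and 70.7 with miR-99a-5p, and at 125 in mock and 901 with miR-99a-3p, a difference of 3.21 (spot error 0.43). MMP10, a matrix metalloproteinase, was at 286 in mock and 339 with miR-99a-5p, and at 504 in mock and 4237 with miR-99a-3p. FRS2, the adaptor of FGF receptors, was at -0.46 and 2.51. B4GAT1, which acts in the glycosylation of dystroglycan, was at -0.42 and 2.44, and the kinase ALPK3 at 0.35 and 2.96.

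Of the 5 protein-coding genes with the largest positive differences, 3 were in none of the classes above, since the size of the ratio with miR-99a-5p lay between 0.5 and 1. NT5E, the ectonucleotidase CD73, was at 0.98 with miR-99a-5p and 3.93 with miR-99a-3p. TMEM121 was at -0.52 and 2.35. TXNIP, an inhibitor of thioredoxin and of glucose uptake, was at 0.64 and 3.56, but its mock signals of 76.6 and 286 differed by 1.13 on the log2 scale beyond the general brightness of the arrays. It is thus one of the 20 genes with such a mock difference of 1 or more.

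The genes moved by miR-99a-5p only were mostly dim. The median signal over the 4 channels was 71.2 for the 51 raised ones and 122 for the 8 lowered ones, against 659 for the genes moved by neither strand. In 12 of the 51 the mock signals of the arrays differed by 0.5 or more on the log2 scale (23.5%, against 1.60% of all genes). With limma's normexp and loess in place of the deposited ratios, only 4 genes met the rule, 2 of them among the 59, and all 8 lowered genes had a size between 0.44 and 0.72 with miR-99a-5p.

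SMAD2, a transducer of TGF-beta and activin signals (probe at hg19 chr18:45348228-45348287), was the lowest of the 8. It had 142 in mock and 57.4 with miR-99a-5p, and 233 in mock and 212 with miR-99a-3p. The ratios were -1.30 (spot error 0.28) and -0.13 (0.22), and -0.64 and -0.03 with normexp and loess. BCDIN3D, an RNA methyltransferase that caps the end of microRNA precursors and of a histidine tRNA, was at 347 in mock and 165 with miR-99a-5p, and at 587 and 607 on the other array. Its ratios were -1.07 and 0.05, and -0.71 and 0.10 with normexp and loess. The rest of the protein-coding ones were ACADS (-1.08), LRRC75A (-1.01) and CCDC176 (-1.03).

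Among the 22 protein-coding genes raised with miR-99a-5p only, the leading ones by difference were PLA2G2F, a secreted phospholipase (1.61 and 0.00), SCUBE1 (1.45 and 0.00), IGSF1 (1.13 and -0.26), ASCL5 (1.32 and -0.02) and TIMP3, an inhibitor of metalloproteinases (1.18 and -0.14). They lay near the background. PLA2G2F had 33.3 in mock and 102 with miR-99a-5p, but 83.9 and 84.2 on the other array, so its mock signals differed by 0.56 after scaling. After normexp and loess its ratio with miR-99a-5p was 0.71. PGF, a placental growth factor, was a brighter case chosen after its values were seen, with 1336 in mock and 2720 with miR-99a-5p, and 2331 and 2839 on the other array.

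The widest gap between the strands in any gene list was in the genes of ATF4 and of the unfolded protein response, through which cells answer amino acid shortage and misfolded protein in the endoplasmic reticulum. All 40 measured members (of 41 on the list) were below 0 with miR-99a-3p, 35 of them at -1 or less, with a median log2 ratio of -1.77. With miR-99a-5p the median was -0.17 and 0 members reached a size of 1. The difference was -1.56 at the median and -1 or less in 34 of 40 (85.0%, against 5.73% of all genes), and 31 of the 40 were in the class lowered by miR-99a-3p only. The mock channels differed by 0.08 at the median over these genes and the transfected channels by -1.37. These are bright genes, and of all 2116 genes with a mock signal of 5000 or more 6.10% had a difference of -1 or less.

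**Figure D3:**
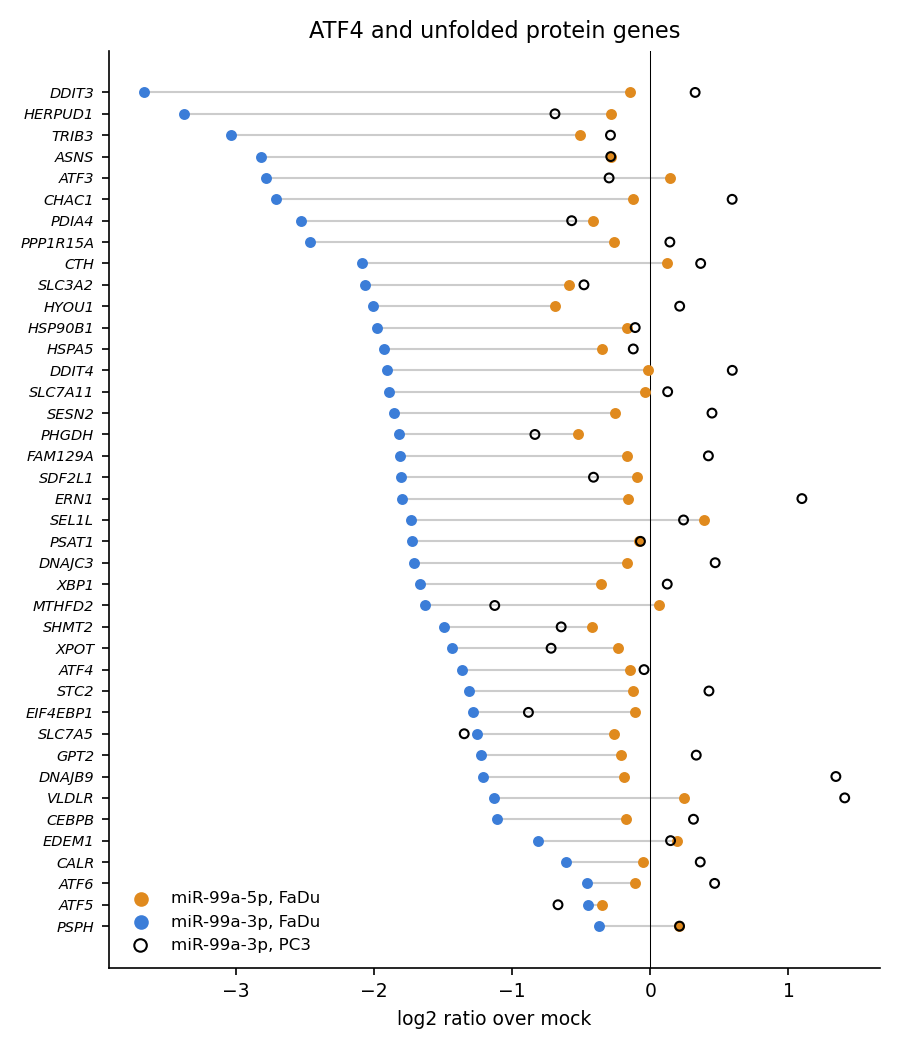
Log2 ratio over mock of the 40 measured ATF4 and unfolded protein genes, 1 gene per line, sorted by the value with miR-99a-3p in FaDu. Blue points (miR-99a-3p, FaDu) all lie below 0, orange points (miR-99a-5p, FaDu) lie between -0.69 and 0.39, and open circles (miR-99a-3p, PC3) lie on both sides of 0.

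DDIT3, which encodes the transcription factor CHOP, was the most lowered. Its probe (hg19 chr12:57911200-57911526) gave 5870 in mock and 5303 with miR-99a-5p, and 9820 in mock and 773 with miR-99a-3p. Of these 4 signals, that with miR-99a-3p was the lowest, with ratios of -0.15 (spot error 0.20) and -3.67 (0.40).

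HERPUD1, a factor of the degradation of proteins from the endoplasmic reticulum, was at 48765 and 40058 on the miR-99a-5p array and at 86017 and 8299 on the miR-99a-3p array, in mock and transfected cells. TRIB3, a pseudokinase that ATF4 induces, was at 53130 and 37360, and at 101417 and 12346. ASNS, asparagine synthetase, was at 76222 and 62600, and at 144902 and 20571. All 3 lay far above the background, and had ratios with miR-99a-3p of -3.37, -3.04 and -2.82 beside -0.28, -0.51 and -0.28 with miR-99a-5p.

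The lowered members included a sensor, factors and targets. The factors ATF3 (-2.78), XBP1 (-1.67, with an SD of 0.03 between 10 spots), ATF4 itself (-1.36) and CEBPB (-1.11) were lowered with miR-99a-3p, as was the sensor ERN1 (-1.80). The chaperones PDIA4 (-2.53), HYOU1 (-2.01), HSP90B1 (-1.98) and HSPA5 (-1.93) and the serine pathway enzymes PHGDH (-1.82) and PSAT1 (-1.72) were lowered too. ATF5 (-0.46), ATF6 (-0.46), EDEM1 (-0.82), CALR (-0.61) and PSPH (-0.37) were the 5 members that did not reach -1.

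The same genes carry, in part, a motif of ATF4 and CEBP sites in their promoters. The letters TGATGNAA were searched on either strand in RefSeq's windows from 250 bases before to 50 bases after each gene's start. They were in 5 of 35 promoters of this list (14.3%), in 5.41% of 481 promoters of genes lowered by miR-99a-3p only, in 0.943% of 530 of those raised by it only, in 1.71% of the 9891 promoters of measured genes and in 3.67% of all 27305. This motif was chosen after the values were seen. For 4 of the 5 genes the surrounding 60 bases are shown (GRCh38.p14, from RefSeq, 5′ to 3′ on the gene's strand), with the match in capitals, since these were among the most lowered genes of the list.
ASNS, chr7:97872443-97872502, - strand: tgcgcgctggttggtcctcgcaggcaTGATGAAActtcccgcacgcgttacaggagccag
ATF3, chr1:212565190-212565249, + strand: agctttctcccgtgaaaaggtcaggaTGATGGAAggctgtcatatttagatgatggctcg
CHAC1, chr15:40953236-40953295, + strand: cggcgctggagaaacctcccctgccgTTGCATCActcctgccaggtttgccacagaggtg
HERPUD1, chr16:56931940-56931999, + strand: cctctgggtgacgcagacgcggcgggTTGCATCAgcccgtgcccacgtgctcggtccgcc

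CHAC1, a glutathione-degrading enzyme, was at -0.12 with miR-99a-5p and -2.71 with miR-99a-3p. A match says only that the letters are in the window. DDIT3 had no match there.

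The cytosolic tRNA synthetases, several of which ATF4 is known to induce, were split among themselves. This family was added after the values were seen. Of 20 measured, 8 were lowered with miR-99a-3p (40.0%, against 5.99% of all genes), namely WARS (-1.79), AARS (-1.57), GARS (-1.45), SARS (-1.40), EPRS (-1.26), LARS (-1.17), CARS (-1.03) and YARS (-1.01). The other members ranged up to 0.66 (VARS), and HARS, KARS, QARS and RARS lay between 0.18 and 0.40. Of the 16 mitochondrial tRNA synthetases measured, 0 reached a size of 1 with either strand. ER translocation and transport genes, also added afterwards, had a median difference of -0.28, with 3 of 33 at -1 or less (9.09%, against 5.73% of all genes).

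**Figure D4:**
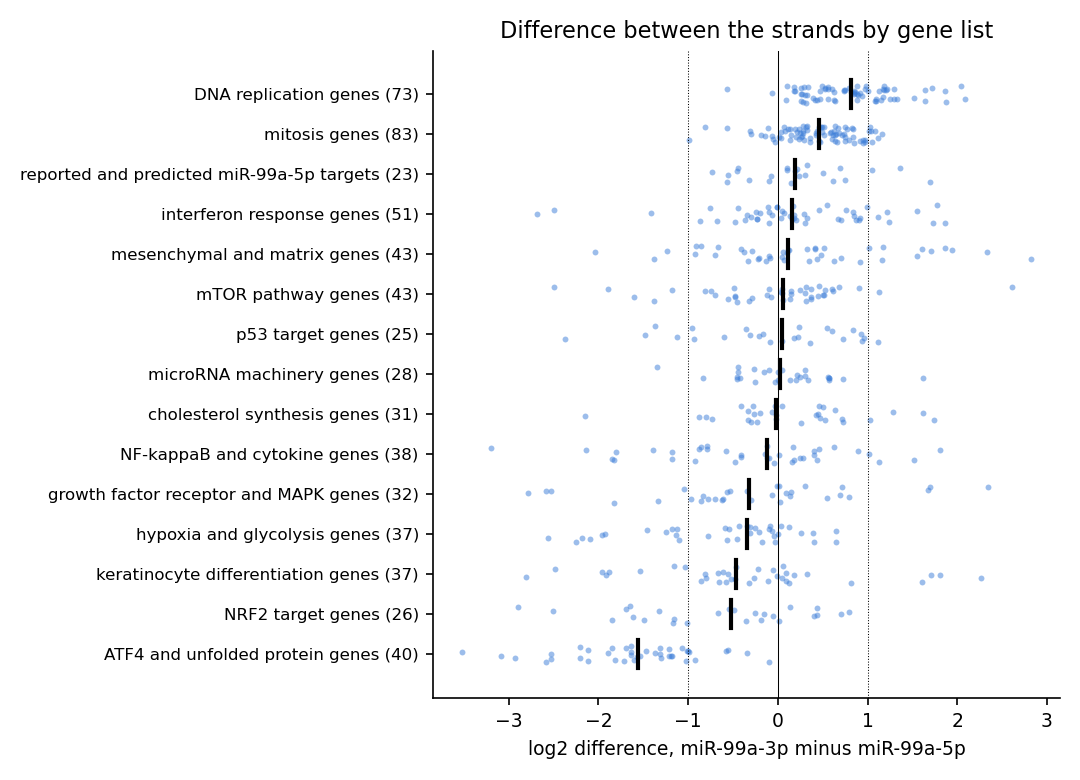
Log2 difference between the strands (miR-99a-3p minus miR-99a-5p) for the measured genes of 15 lists, 1 point per gene, with the list's median as a black bar, the number of measured genes in brackets and dotted lines at -1 and 1. The ATF4 and unfolded protein genes lie lowest, with a median of -1.56, and the DNA replication genes highest, with a median of 0.82.

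NRF2 target genes, which answer oxidants, were lower with miR-99a-3p in part. Of 26 measured, 11 had a difference of -1 or less (42.3%, against 5.73% of all genes) and 0 of 1 or more, with medians of -0.15 with miR-99a-5p and -0.93 with miR-99a-3p. HMOX1, haem oxygenase, was measured on 10 spots and went from 33858 in mock to 30652 with miR-99a-5p, and from 62982 in mock to 7681 with miR-99a-3p, with ratios of -0.14 (SD between spots 0.04) and -3.04 (0.03). AKR1C1 was at -0.92 and -3.42 and AKR1C3 at -0.62 and -2.23, and as near-identical relatives they may share signal. SLC7A11, the cystine transporter (-0.04 and -1.89), is on this list and on that of ATF4, and DDIT4, an inhibitor of mTOR (-0.02 and -1.91), on those of ATF4 and mTOR.

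DNA replication genes lay higher with miR-99a-3p. Of 73 measured, 72 were above 0 with miR-99a-3p and 63 with miR-99a-5p, with medians of 0.98 and 0.27, and the difference was 1 or more in 24 (32.9%, against 5.57% of all genes) and -1 or less in 0. PCNA, the sliding clamp, was at 996 in mock and 1392 with miR-99a-5p, and at 1612 in mock and 7037 with miR-99a-3p. Its ratios were 0.48 (spot error 0.21) and 2.13 (0.28). E2F2, a factor of S phase entry, was at 0.30 and 2.39, GINS1 at 0.41 and 2.29, CDC25A at 0.21 and 2.07, and the helicase loader MCM10 at 0.46 and 2.50, the last with mock signals under 100.

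Mitosis genes differed less between the strands. Of 83 measured, 81 were above 0 with either strand, with medians of 0.37 with miR-99a-5p and 0.85 with miR-99a-3p, and the difference was 1 or more in 7 (8.43%, against 5.57% of all genes). These 7 were SPC25 (1.16), AURKB (1.12), SPC24 (1.09), CDCA5 (1.05), CCNA2 (1.04), NCAPD3 (1.02) and TOP2A (1.02). NCAPG, a condensin subunit, was at 0.31 (spot error 0.32) with miR-99a-5p and 0.80 (0.28) with miR-99a-3p. It was dim, with mock signals of 51.1 and 85.4. RRM2 was the only replication or mitosis gene in the class raised by both (1.02 and 1.33). With normexp and loess it was at 0.55 and 0.885, and so raised by neither.

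**Figure D5:**
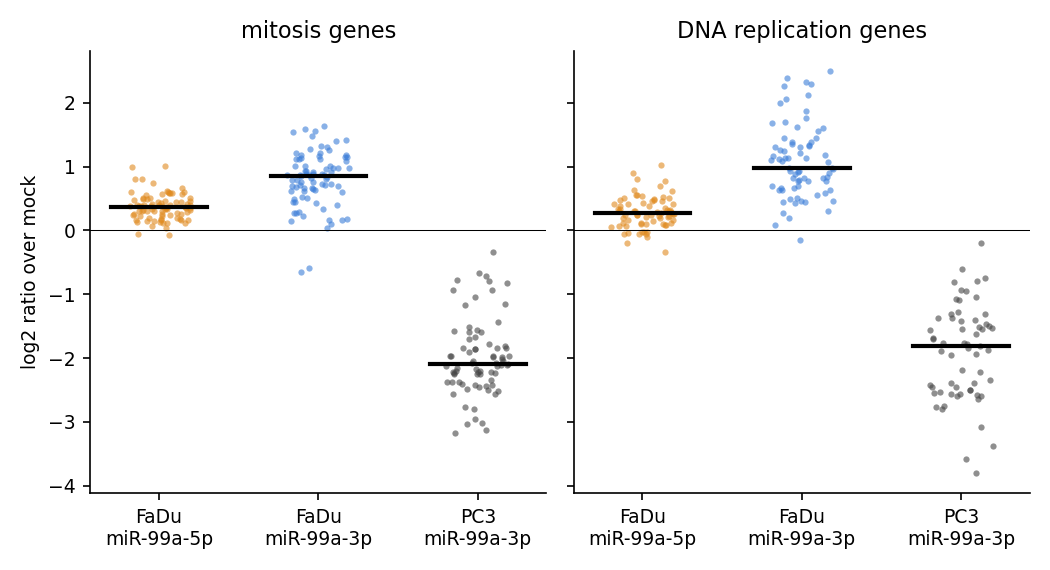
Log2 ratio over mock of the measured mitosis genes (left) and DNA replication genes (right) on the FaDu miR-99a-5p array, the FaDu miR-99a-3p array and the PC3 miR-99a-3p array, 1 point per gene, with the median as a black bar. Medians are 0.37, 0.85 and -2.09 for mitosis and 0.27, 0.98 and -1.81 for DNA replication.

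Hypoxia and glycolysis genes were mostly above 0 with miR-99a-5p and split about 0 with miR-99a-3p. With miR-99a-5p 32 of 37 were above 0 (median 0.36), with miR-99a-3p 18 were (median -0.08), and the difference was -1 or less in 12 (32.4%, against 5.73% of all genes) and 1 or more in 0. ADM, adrenomedullin, was at 8909 in mock and 16525 with miR-99a-5p, and at 15497 in mock and 4862 with miR-99a-3p, over 10 spots per array. Its ratios were 0.89 (SD between spots 0.03) and -1.67 (0.05). PDK1 (0.74 and -1.19) and ANKRD37 (0.85 and -1.24) had the same signs, and VEGFA (-0.23 and -2.41) and HK2 (0.29 and -1.96) were lowered with miR-99a-3p only. ANGPTL4 and EGLN3 (1.11 and 1.05) were raised by both, though EGLN3 was at 0.69 and 0.79 with normexp and loess.

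Growth factor and MAPK genes held large differences of either sign. FOS (0.72 and -2.06) and DUSP1 (0.60 and -1.92), immediate early genes, and the ligand genes NRG1 (-0.05 and -2.63) and BTC (-0.61 and -2.43) were lowered with miR-99a-3p. CCND1, cyclin D1, went the other way over 10 spots, from 1380 in mock to 1017 with miR-99a-5p and from 1665 in mock to 6197 with miR-99a-3p. Its ratios were -0.44 (SD between spots 0.10) and 1.90 (0.08). Its mock signals lay closer together than the 1.71-fold median gap between the arrays. With the transfected channels compared directly, its difference was 1.78 in place of 2.34. IRS1, the insulin receptor substrate on the mTOR list, was at -0.36 and 2.25.

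Keratinocyte differentiation genes were likewise split, with 8 of 37 at a difference of -1 or less (21.6%, against 5.73% of all genes) and 4 at 1 or more (10.8%, against 5.57%). SCEL (0.17 and -2.64), TGM1 (-0.19 and -2.07), CSTA (-0.07 and -2.03), SPRR2A (-0.29 and -2.20) and KRT6A (-0.34 and -2.83) were lowered with miR-99a-3p. S100A8 (0.76 and 3.03), S100A7 (0.63 and 2.34) and CST6 (1.07 and 2.88) were raised with it. KRT6A and SPRR2A have near-identical relatives that may share signal. Among mesenchymal and matrix genes 10 of 43 differed by 1 or more (23.3%, against 5.57% of all genes). A difference of -1 or less was seen in 3 (6.98%, against 5.73%). MMP10 and MMP3 (0.95 and 3.28) led upward, and CTGF downward (0.995, just under the limit for raised, and -1.04).

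The remaining lists had median differences near 0, though not all had ratios near 0. Interferon response genes had median ratios of 0.27 with miR-99a-5p and 0.39 with miR-99a-3p. With miR-99a-3p 14 of these 51 genes were raised (27.5%, against 6.69% of all genes). NF-kappaB and cytokine genes had medians of 0.36 with miR-99a-5p, where 33 of 38 were above 0, and 0.01 with miR-99a-3p. The median difference was 0.16 for 51 interferon response genes, with 7 at 1 or more (13.7%, against 5.57% of all genes) and 3 at -1 or less (5.88%, against 5.73%), with LAMP3 at -0.82 and -3.32 and the dim IFNL2 at 1.90 and -0.79. It was -0.12 for 38 NF-kappaB and cytokine genes, with 4 (10.5%) and 8 (21.1%) such genes. For 43 mTOR pathway genes it was 0.05, for 25 p53 target genes 0.05, for 28 microRNA machinery genes 0.02 and for 31 cholesterol synthesis genes -0.02. Among these, FLCN, a lysosomal regulator of mTORC1, was at -0.32 and -2.82, GADD45A at 0.08 and -2.30, DICER1 at 0.08 and 1.70 and STARD4 at 0.62 and -1.52.

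Reported and predicted targets of miR-99a-5p were not lower as a group on the miR-99a-5p array. Of 23 measured, 13 were below 0 and 10 above with miR-99a-5p, with a median of -0.02, and 0 reached a size of 1. MTOR had 623 in mock and 553 with miR-99a-5p, and 1148 and 1128 on the other array, with ratios of -0.17 (spot error 0.21) and -0.03 (0.20). IGF1R was at 0.11 with miR-99a-5p and 1.81 with miR-99a-3p. SMARCA5 (-0.04) and BAZ2A (-0.42), chromatin remodelling proteins, were below 0 with miR-99a-5p, and PLK1 (0.61) and ZBTB7A (0.58) were the 2 members at a size of 0.5 or more. With miR-99a-3p 3 members were raised (13.0%, against 6.69% of all genes), IGF1R, EPDR1 (1.31) and CTDSPL (1.17).

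Transcripts were not given, so whole 3′ untranslated regions were not analysed here, but seed matches were looked for in the probes' 60 bases as deposited. The match to bases 2 to 8 of miR-99a-5p, TACGGGT, was in the probes of 5 genes, and 4 of these were below 0 with miR-99a-5p (median -0.23). That of miR-99a-3p, CGAGCTT, was in the probes of 12 genes, 7 of them below 0 with miR-99a-3p (median -0.34) and 2 lowered. For the 6-base match the medians were -0.11 over 42 genes with miR-99a-5p and -0.18 over 271 genes with miR-99a-3p, against 0.00 and -0.01 over the genes without it, and 29 of the 271 were lowered with miR-99a-3p, where 5.99% of all genes were. On the array of the strand that they do not match, the same genes had medians of -0.20 (5 genes) and -0.01 (42 genes) for the miR-99a-5p matches and -0.05 (12 genes) and -0.06 (271 genes) for those of miR-99a-3p. The lowered miR-99a-3p cases and the lowest miR-99a-5p case are shown, with the match in capitals within 29 bases of the probe.
RND3: cttgttgaaaaCGAGCTTtctttcccatg
EFCAB2: tCGAGCTTttgaggttttagattcagcta
TMEM87B: gttagtgaggaTACGGGTctggtttgatg

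RND3, a small GTPase (probe at hg19 chr2:151325107-151325166), was at 0.08 with miR-99a-5p and -1.07 with miR-99a-3p, with an SD of 0.07 between 10 spots on either array. EFCAB2 was at -0.66 and -1.20, and TMEM87B at -0.50 and -0.64, so these 2 were below 0 with either strand.

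On promoters, CCAAT boxes were in 41.4% of genes lowered and 39.2% of genes raised by miR-99a-3p only, beside 37.4% of all measured genes with a promoter. The shares for TTTGAA, a CHR element of cell cycle genes, were 9.98% and 14.0% beside 9.55%, and for GAAANNGAA, an interferon response element, 4.57% and 5.66% beside 6.37%. These classes thus held the 3 motifs at shares within 1.5 times those of all measured genes.

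The genes that miR-99a-3p moved in FaDu were then read on the array of PC3 prostate cancer cells with the same strand, which took no part in choosing them. Of 14144 genes measured there, 2.7% were raised and 4.32% lowered. The genes lowered by miR-99a-3p only in FaDu had a median of -0.07 in PC3, with 22 of 623 raised (3.53%) and 49 lowered (7.87%). Those raised by it only in FaDu had a median of 0.06, with 47 of 663 raised (7.09%) and 88 lowered (13.3%). The raised share of the lowered class was thus near that of all genes, and the other shares were above it. The raised class held more lowered than raised genes. On the PC3 array with miR-150-3p, 41 of 670 genes of the raised class were lowered too (6.12%, against 1.97% of all genes). With miR-150-5p 0.739% were lowered (against 0.664%), and with miR-100-3p 0.598% were (against 0.276%).

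The ATF4 and unfolded protein genes had a median of 0.13 in PC3 with miR-99a-3p, against -1.77 in FaDu. In PC3 3 of 40 were raised (7.5%, against 2.7% of all genes) and 2 lowered (5%, against 4.32%). DDIT3 was at 0.32 in PC3, HERPUD1 at -0.69, TRIB3 at -0.29 and ASNS at -0.29. The NRF2 target genes had a median of 0.13 in PC3 with miR-99a-3p. Of 24 measured, 0 reached a size of 1, against 2.7% raised and 4.32% lowered of all genes. IGF1R was raised in PC3 (1.42) as in FaDu (1.81), and DICER1 was too (1.71 and 1.70). Both genes also lay above 0 in PC3 cells given other microRNAs. DICER1 reached 1.08 with the 5p strand of miR-150, 0.79 with its 3p strand and 0.17 with miR-100-3p. For IGF1R these values were 0.687, 0.685 and 0.636. Whether the rises in PC3 were particular to miR-99a-3p was not tested.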

How the data were processed

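RNA of 2 FaDu arrays was compared, each a 2-colour hybridisation of transfected (Cy5) against mock (Cy3) cells on an Agilent expression array (hg19 annotation). Per the file headers, the deposited intensity values (background-subtracted, dye-normalized processed signals) and log10 values of the ratio (Cy5 over Cy3) were both made by the authors with Agilent Feature Extraction 10.7.3.1. Its error of each log10 ratio, a score derived from an error model, was also deposited per the file headers. The series' value table holds the same log10 ratios, with a median of 0 on each array and a largest gap of 0.

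The ratios were multiplied by 3.3219 to give log2 values. Spots flagged as outliers in either channel (136 and 128 of 60901 on the FaDu arrays) were dropped, repeated spots were averaged, and a probe had to be well above background in most of its spots in both channels of both arrays. The brightest passing probe stood for a gene. Of 15280 genes 12606 matched RefSeq by symbol, accession or synonym (11381 protein-coding), and 2674 kept the array's name. Differences have the error sqrt(e5p x e5p + e3p x e3p). No spot was saturated, and the number of arrays limits the precision. limma 3.58.1 (R 4.3.3) gave the normexp (offset 50) and loess alternative and the channel comparisons. The classification was tested on simulated data. Samples were grouped by the labels' cell line and transfection. No column of the value table was left without a sample.

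Named genes were the 5 leading protein-coding genes of each class and direction, the 5 largest differences each way, 3 or more members of each list by size of difference, the miR-99a-5p targets at 0.5 or more, those nearest the limit of 1, the 3 largest bounds per array and NCAPG. Further genes are named as members of a list or class. The classes, gene lists and comparisons were chosen with earlier results of these data known, so the lists' counts are descriptions. PC3 values are for the same probe, measured where both PC3 channels were well above background. Some items are not reported here.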

Additional observations from a re-analysis of the deposited data

Results flagged for a closer look

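The cell cycle lists had medians of opposite sign in the 2 cell lines given miR-99a-3p. The mitosis genes were at 0.85 in FaDu and -2.09 in PC3, where 68 of 76 were lowered (89.5%, against 4.32% of all genes). The DNA replication genes were at 0.98 in FaDu and -1.81 in PC3, where 54 of 61 were lowered (88.5%, against 4.32% of all genes). With 1 array for each line, the difference was not tested.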

How the results depend on the processing

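Each strand had 1 array, and the counts below moved with the filter on dim probes and with the threshold. With normexp and loess, 915 genes differed by 1 or more between the strands in place of 1726, 15 moved with both in place of 45 (13 of them shared) and 4 with miR-99a-5p only in place of 59 (2 shared). The genes moved with miR-99a-3p only were then 1026 in place of 1447 (871 shared). With 1 channel of each array above background taken as enough, the counts were 3034 differing, 226 with both and 297 with miR-99a-5p only, and 2 genes differed between the mock channels in place of 0. With no filter they were 7660, 619, 3703 with miR-99a-3p only and 1977. At a limit of 1.5-fold in place of 2-fold they were 4762, 504, 2958 and 293, and at 3-fold they were 450, 7, 502 and 5. Comparing the transfected channels directly gave 1000 differing genes, and a median difference of -1.37 in place of -1.56 for the ATF4 and unfolded protein genes, a list median whose alternatives were added after the data were seen. The medians of the mitosis, DNA replication and interferon lists moved by less than the mock channels' SD of 0.12 under each of the 9 alternatives run. Over 120 named genes, 986 of the 1079 recomputed differences moved by less than the spot error, and 0 called differences changed sign. Of the single ratios recomputed, 1 called ratio did, that of DDX58 with miR-99a-3p, which was 2.29 by one probe and -0.20 by the probe brightest over all 8 arrays. Where a gene had several passing probes and differed by 1 or more (338 genes), all its probes had the same sign in 278. The cause of these changes was not tested. The direct comparison of transfected channels was not run for the classes, since it gives no ratio to mock. No paired analysis was possible because a strand has no second array.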
